A study of Rattus norvegicus with 8 samples.

Results

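The 9 genes of photoreceptor identity and outer segment structure were Crx, Nrl, Nr2e3, Prph2, Rom1, Prom1, Abca4, Rp1 and Tulp1. They were taken as the spots of a rat expression array that are not controls and whose gene name is in that list. Of the 9 members, 8 were found among the 26334 gene names of the array, on 10 probes with 1 spot each. Nr2e3, a nuclear receptor that represses cone genes in rods, was not found under that name, and its expression is not analysed here. The RNA came from retinas of female Lister Hooded rats, 8 weeks old at surgery. In the ONC group forceps had been closed on the right optic nerve, 3 mm behind the disc, for 10 s, and CTR rats had sham surgery in which the nerve was not squeezed. Retinas were collected 2 weeks later, 4 per group, and hybridized in pairs onto 4 Agilent arrays with Cy3 and Cy5 dyes.

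Rods and cones build their light sensor, the outer segment, as a stack of membrane discs grown from a modified cilium. Crx, an OTX-class homeobox factor, and Nrl, a leucine zipper factor that sets rod fate, switch on the genes for it. Prph2 and its partner Rom1 are tetraspanins of the disc rim, Prom1 sits in newly forming discs, and Abca4 clears retinaldehyde from discs as a transporter. Rp1 binds the microtubules of the axoneme and Tulp1 serves the transport of proteins to the outer segment. Mutations in these genes are known causes of inherited retinal degeneration. Optic nerve crush cuts the axons of retinal ganglion cells (RGCs), a different cell layer, so the comparison asks whether photoreceptor transcripts differ between retinas of crushed and sham-operated nerves.

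The labels put CTR retinas in Cy5 and ONC retinas in Cy3 on every array, and a difference between the groups cannot be told apart from a difference between the dyes. By the methods, an array holds only CTR or only ONC retinas, 1 per dye. Under that account the difference within an array, and the array as a block, would not compare ONC with CTR as the labels have it. Within-array values below follow the labels. CTR2, CTR4, ONC1 and ONC3, the channels of agreed dye, have the same dye in both accounts. Among them CTR is still only Cy5 and ONC only Cy3, so label and dye cannot be told apart there either. Values are log2 intensities after normalization, with 0 at the median spot of a channel. The RGC transcription factor Pou4f2 read -4.04, -0.52, -3.95 and -3.02 in the channels labelled CTR1 to CTR4. It read -0.03, -0.04, -0.05 and -3.14 in those labelled ONC1 to ONC4. The RGC marker was thus high in CTR2 and low in ONC4, and its mean was higher in the ONC channels, which is opposite to the study's direction for a crushed nerve. It was also higher under ONC in the channels of agreed dye, by 1.73 ± 0.84, so the conflict remains in them. Every direction below is therefore between channels labelled ONC and channels labelled CTR. Gnat1, the transducin of rods, read between 6.49 and 6.88 under the CTR label and between 6.17 and 6.61 under the ONC label, and every channel thus carried strong signal from a rod marker.

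The member spots were bright, with a mean foreground at least 44.0 times the local background in all 8 channels, and none was saturated. Probe sequences are shown because each of these 5 members is read by 1 such stretch of 60 bases. Those of Crx, Nrl, Prph2, Rom1 and Tulp1 follow in the order 5′ to 3′, from the array design on build rn4, where all 5 lie on the minus strand:
Crx, chr1:76190668-76190727: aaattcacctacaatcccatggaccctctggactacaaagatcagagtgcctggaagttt
Nrl, chr15:33653480-33653539: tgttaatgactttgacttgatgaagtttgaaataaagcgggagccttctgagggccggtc
Prph2, chr9:9251436-9251495: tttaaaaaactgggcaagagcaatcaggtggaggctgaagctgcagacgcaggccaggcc
Rom1, chr1:211604695-211604754: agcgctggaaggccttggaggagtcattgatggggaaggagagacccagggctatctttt
Tulp1, chr20:6595994-6596053: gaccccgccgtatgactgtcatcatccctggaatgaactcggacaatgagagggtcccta

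Of the 9 members, 6 were measured in all 8 channels, and none of these 6 was called between the ONC and CTR channels. Among all 16307 genes measured, limma called 81, or 0.497%, at an adjusted p under 0.05. The disc rim gene Rom1 was 0.41 ± 0.15 log2 units lower (fitted difference ± SE) and the transporter gene Abca4 0.34 ± 0.11 higher in the ONC channels. These were the members with an unadjusted p under 0.05, as were 18.6% of all genes. The median difference of the 6 members was -0.19, beside -0.01 over all genes. It was -0.33 without loess, -0.05 with the signals that the scanner software had processed and 0.04 in the channels of agreed dye. In whole retina, fewer photoreceptors and less RNA per photoreceptor cannot be told apart. Prph2 and Tulp1 carried an outlier mark of the scanner software on some arrays and were left out of the fit over all arrays. Their values come from the unmarked arrays only, a choice made after the data were seen.

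Crx, a transcription factor of the photoreceptor program, read 1.84, 1.66, 1.85 and 1.23 in CTR1 to CTR4. In ONC1 to ONC4 it read 1.56, 1.25, 1.62 and 0.95. The lowest channel of each label was on the fourth array, and the labels overlapped. Within every array, however, the ONC channel was below the CTR channel, by -0.28, -0.41, -0.23 and -0.28. The fitted difference was -0.30 ± 0.18 with an adjusted p of 0.429 in limma. With the array as a block, the SE was 0.07 and the adjusted p 0.0484, and Crx was then called lower, as 1254 genes were in either direction (7.69% of all). Across the channels of agreed dye, which compare different arrays, the sign turned, to 0.14 ± 0.18. Beyond the sign within arrays, no direction is given for Crx.

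Nrl, which acts with Crx on rod genes, read 2.63, 2.60, 2.90 and 2.86 in CTR1 to CTR4, against 2.79, 2.90, 2.94 and 2.99 in ONC1 to ONC4. Its channels were close together, and the lowest ONC channel lay within the CTR range. The ONC channel was the higher on all 4 arrays, by 0.16, 0.30, 0.04 and 0.13. The fitted difference of 0.16 ± 0.10 did not pass the test (adjusted p 0.435 in limma). Crx and Nrl thus had differences of opposite sign on each array, and neither was called without the block.

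Rom1, a tetraspanin of the disc rim, read 6.57, 6.36, 6.84 and 6.78 in CTR1 to CTR4. In ONC1 to ONC4 it read 6.43, 6.14, 6.40 and 5.92. ONC4 was the lowest channel and CTR3 the highest, and the labels overlapped only through CTR2. The difference within arrays was -0.14, -0.22, -0.44 and -0.86. The adjusted p was 0.185 in limma. Without CTR2 the difference was -0.51, and without ONC4, the channel low in RGC markers, it was -0.31. In the channels of agreed dye it was -0.15 ± 0.18. When channels were put on a shared median and no loess was applied, the difference was -0.79 ± 0.15 with an adjusted p of 0.013, which called Rom1 together with 19.6% of all genes.

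Prph2, the other rim tetraspanin, was unmarked on the second and the fourth array. It read 6.48 in CTR2 and 6.54 in CTR4, and 6.09 in ONC2 and 6.47 in ONC4. Both ONC channels were below both CTR channels, ONC4 by little. The difference was -0.23 ± 0.18 over 2 arrays, with an adjusted p of 0.581 in limma. From the signals that the scanner software had processed it was 0.03, and without loess -0.62. With the outlier marks ignored, Prph2 was lower on all 4 arrays, by -0.57, -0.39, -0.44 and -0.07, at -0.37 ± 0.19. Since the sign turned with the processed signals, no direction is given for Prph2.

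Prom1, or prominin, has 2 probes whose log2 values were averaged. It read 5.25, 5.02, 5.31 and 5.34 in CTR1 to CTR4, against 5.04, 5.02, 5.18 and 5.32 in ONC1 to ONC4. The labels covered nearly the same range. The difference was -0.09 ± 0.11 with an adjusted p of 0.706 in limma, and it was 0.01 with processed signals. With single channels left out it ran from -0.16 without CTR2 to -0.05 without CTR4 or ONC2. No direction is given for Prom1, since the sign turned with processed signals. The probes gave -0.19 ± 0.10 and 0.01 ± 0.15. The former was lower in the ONC channel of all 4 arrays and the latter of 2 of 4.

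Abca4 read 3.95, 3.68, 3.49 and 3.79 in CTR1 to CTR4. It read 4.15, 4.09, 4.12 and 3.90 in ONC1 to ONC4. All ONC channels but ONC4 lay above every CTR channel, and CTR1 was the only CTR channel above ONC4. The difference was positive on every array, at 0.20, 0.41, 0.63 and 0.11. It corresponds to a ratio of 1.26, with an adjusted p of 0.164 in limma. Leaving out CTR2 gave 0.32 and leaving out ONC4 gave 0.39. Over all ways of processing that were tried, the difference of Abca4 ran from 0.22 to 0.41 and that of Rom1 from -0.79 to -0.15.

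**Figure D1:**
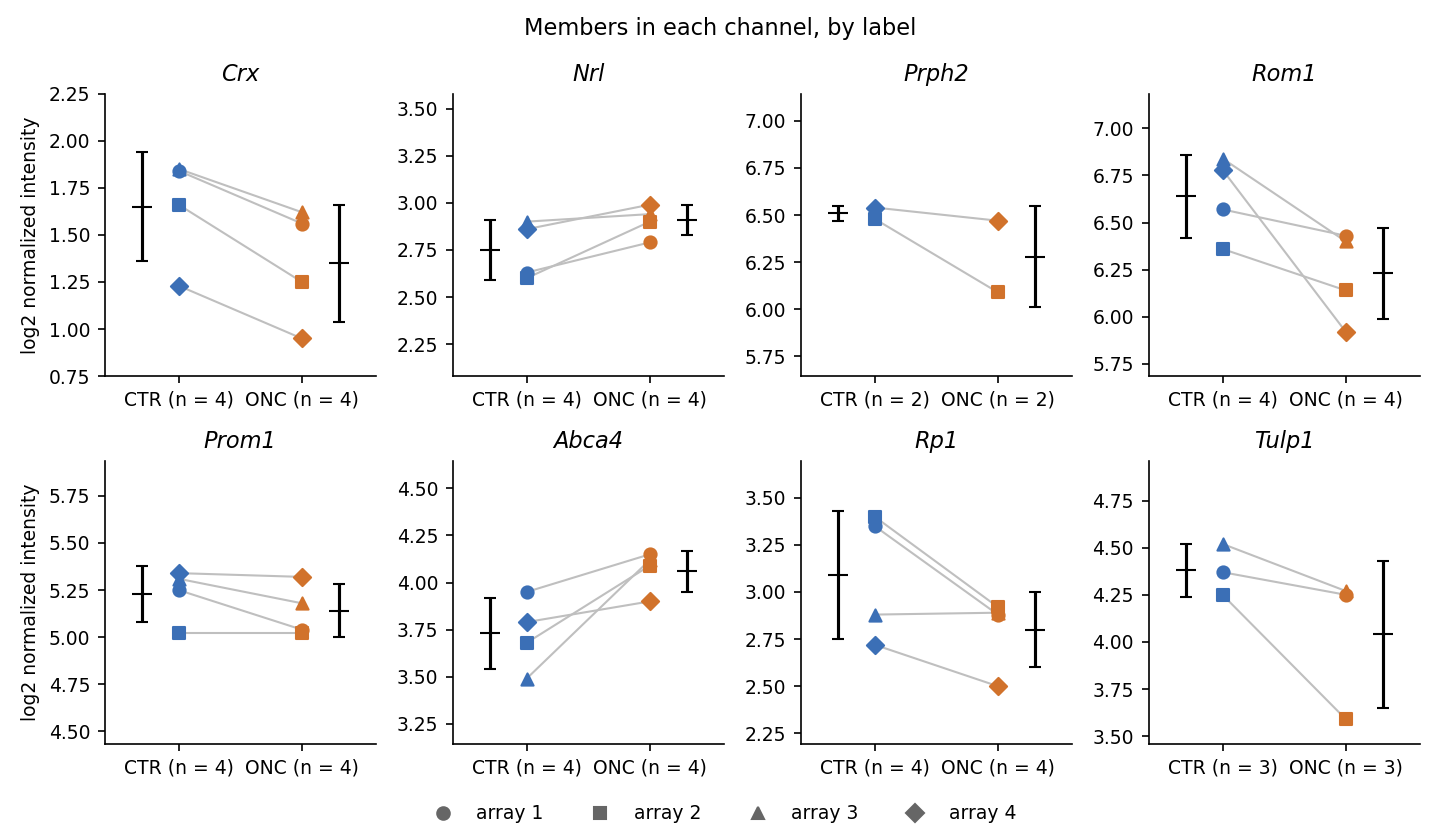
Log2 normalized intensity of 8 members in each channel, by label (blue CTR, orange ONC), with the array as the marker shape and a grey line between the channels of an array. Black bars are mean ± SD, each panel spans the same log2 range, and Prph2 and Tulp1 have 2 and 3 arrays. The channels of Crx, Rom1 and Abca4 overlap between labels, while their lines run the same way on all 4 arrays.

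Rp1, a protein of the axoneme, is measured by 2 probes on chromosome 5 that did not run the same way. The probe at chr5:15401045-15401103 passed the filter on all arrays and carries the value of the gene in the fit. It read 3.35, 3.40, 2.88 and 2.72 in CTR1 to CTR4, against 2.88, 2.92, 2.89 and 2.50 in ONC1 to ONC4. CTR1 and CTR2 stood above the other 6 channels. Its difference was -0.29 ± 0.17, with an adjusted p of 0.411 in limma. It was -0.19 without CTR2 and also without ONC4, and -0.10 with processed signals. With the unmarked arrays of both probes, the gene stood at -0.12. The probe at chr5:15402147-15402206 was unmarked on the last 3 arrays. There it read 4.59, 4.69 and 4.57 in CTR2 to CTR4 and 4.71, 5.08 and 4.77 in ONC2 to ONC4. Every ONC channel was above every CTR channel, at a difference of 0.24 ± 0.13 and an adjusted p over all probes of 0.39 in limma. No direction is given for Rp1, since its probes differ in sign.

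Tulp1, the member for transport to the outer segment, was unmarked on the first 3 arrays. It read 4.37, 4.25 and 4.52 in CTR1 to CTR3 and 4.25, 3.59 and 4.27 in ONC1 to ONC3. ONC2 stood well below the other 5 channels. The ONC channel was the lower on each of the 3 arrays, by -0.12, -0.66 and -0.25. The fitted difference of -0.34 ± 0.20 had an adjusted p of 0.43 in limma, and without ONC2 it was -0.12.

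**Figure D2:**
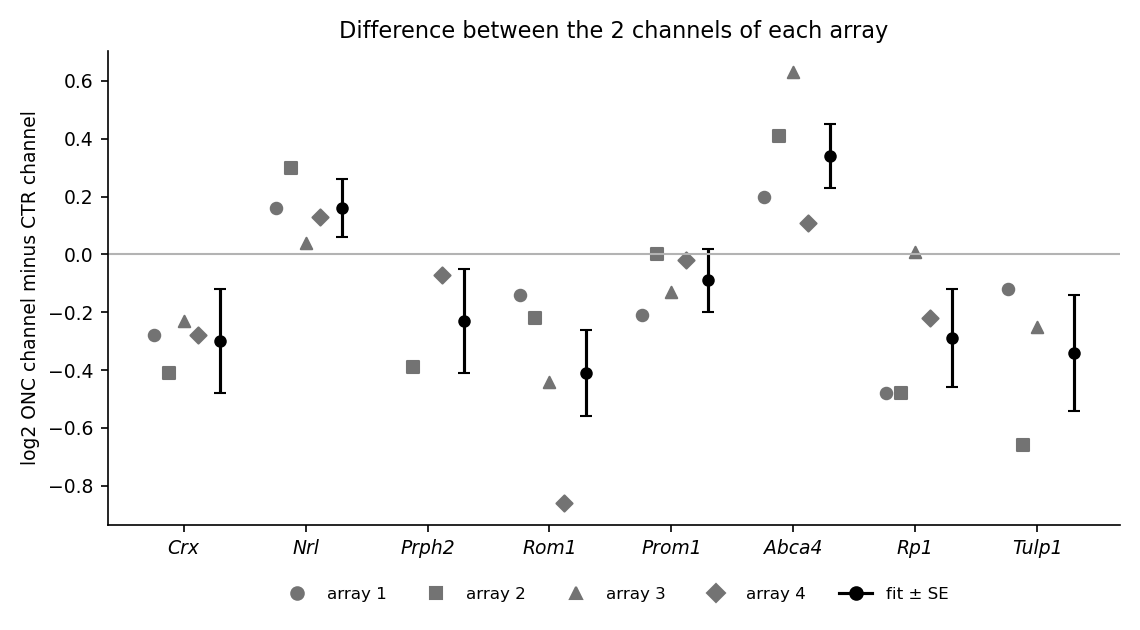
Difference between the ONC and the CTR channel of each array (grey markers, log2) for 8 members, and the fitted difference with its SE (black). Crx and Rom1 are below 0 on 4 of 4 arrays and Nrl and Abca4 above 0 on 4 of 4.

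Of the 6 members measured on all arrays, 4 kept a single sign over the 4 arrays: Crx and Rom1 lower, Nrl and Abca4 higher. Of all genes, 39.4% kept a single sign, 18.2% higher and 21.2% lower on all 4 arrays, so that share of the members is to be read against a high background. None of these 6 had ONC channels that did not overlap the CTR channels, a separation seen in 12.7% of all genes. The spread within a label differed among members. Among CTR channels the SD was 0.339 for Rp1 and 0.288 for Crx, against 0.178 for the median gene, while Prom1 had 0.146. For Crx it rests largely on CTR4, at 1.23 against 1.66 to 1.85 in the other CTR channels. Among ONC channels Crx again had 0.306 and Nrl 0.084, with a median gene of 0.156.

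The size of a difference also depended on how each array was normalized at high intensity. Without loess, the median difference of the brightest 1631 genes, of 10 bins by level, was -0.20, and that of the dimmest bin 0.65. After loess these were 0.00 and 0.01. Rom1, Prom1 and Abca4 belong to the brightest bin, Nrl and Rp1 to the next brightest, and Crx to the bin below that. Their differences without loess were -0.79, -0.33, 0.22, 0.09, -0.36 and -0.33, in that order. The 6 members kept their signs with and without loess.

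**Figure D3:**
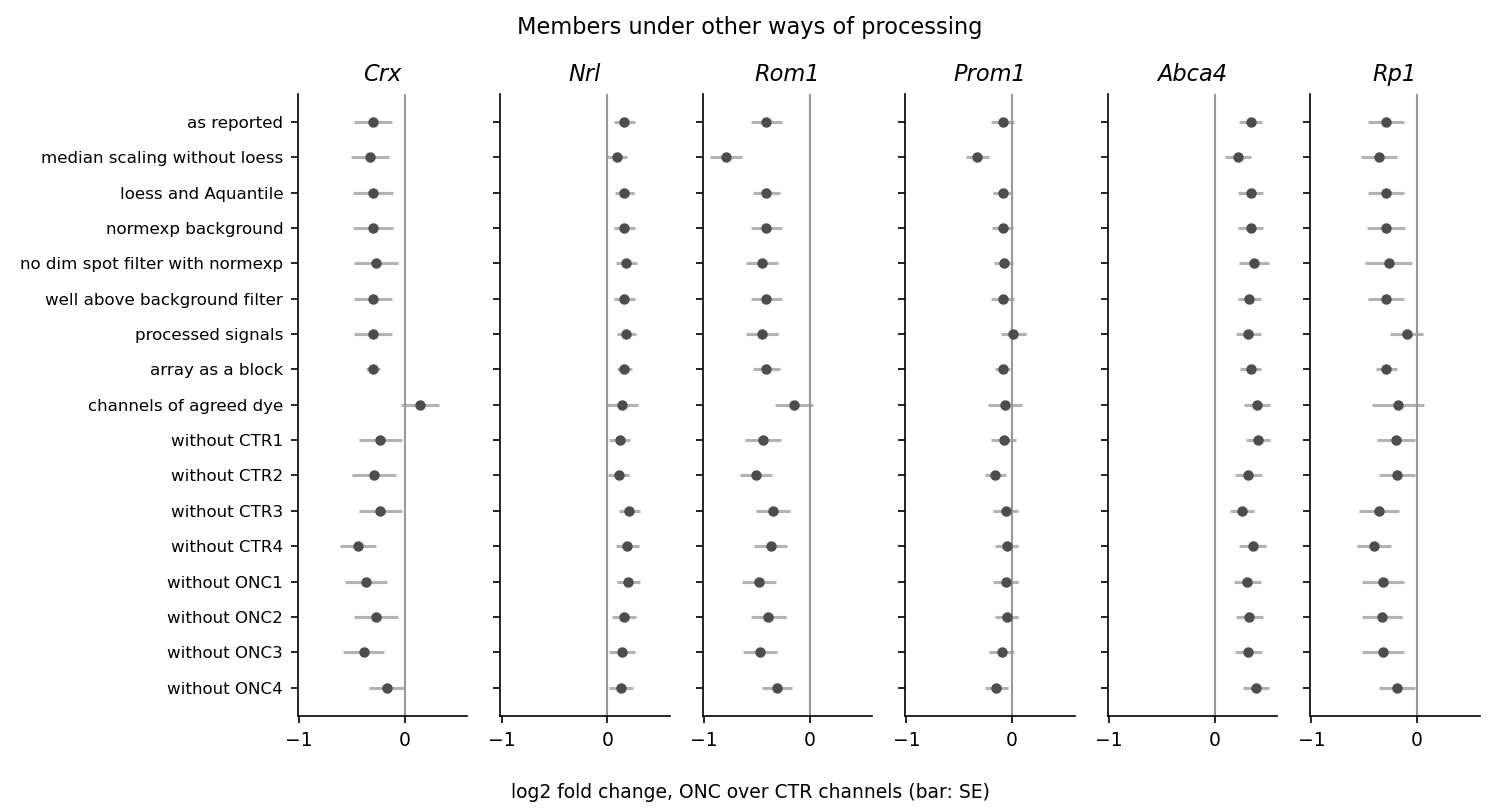
Log2 difference of 6 members (point, with its SE) as reported and under 16 other ways of processing, 8 of which leave out a channel. Abca4 and Nrl stay above 0 and Rom1 below 0 in each, while Crx crosses 0 in the channels of agreed dye and Prom1 with processed signals.

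Other genes of photoreceptors, listed by hand, gave the following picture. Of 14 further transcription factors 12 were measured and none was called, 6 being higher and 6 lower at a median of 0.00. With the array as a block, which called 7.69% of all genes, 1 of them, Rax, was called lower, and without loess, which called 19.6%, 1 was called higher. Otx2, which acts upstream of Crx, differed by 0.08 ± 0.14 and Neurod1 by 0.02 ± 0.10, and both turned negative without loess (-0.22 and -0.09). Of 38 further genes of the outer segment and connecting cilium 31 were measured and none was called, with 10 higher and 20 lower and a median of -0.05. With the block 4 of them were called lower and 1 higher, and without loess 4 lower and 2 higher. Cdhr1, a cadherin of forming discs, read 7.57, 7.30, 7.73 and 7.33 in CTR1 to CTR4, against 7.20, 6.30, 7.22 and 7.31 in ONC1 to ONC4. ONC2 was far below the rest, and the difference was -0.47 ± 0.22 with an adjusted p of 0.294 in limma. Without ONC2 it was -0.24 and in the channels of agreed dye -0.10, while without loess Cdhr1 was called lower, at -0.95. Rpgrip1, an anchor protein of the cilium, was on the array and was removed by the spot filter.

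Of 21 rod phototransduction genes 19 were measured, 6 higher and 13 lower at a median of -0.14, and none was called. Gnat1 read 6.88, 6.49, 6.58 and 6.69 in CTR1 to CTR4, against 6.48, 6.17, 6.46 and 6.61 in ONC1 to ONC4. Its ONC channel was the lower on all 4 arrays, although the labels overlapped, with ONC4 above CTR2 and CTR3. The difference of -0.23 ± 0.12 had an adjusted p of 0.354 in limma, and without loess Gnat1 was called lower, at -0.63. With loess it was -0.15 without ONC2 and -0.12 in the channels of agreed dye. In all, 3 rod genes were called lower with the block and 6 without loess, and none higher, where 7.69% and 19.6% of all genes were called. Without loess the brightest genes lay lower, as given above.

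Of 11 cone phototransduction genes 10 were measured, 3 higher and 7 lower, at a median of -0.30 and without a call. The S opsin gene Opn1sw differed by -0.36 ± 0.18, or -0.21 without CTR1, and cone arrestin, Arr3, by -0.04 ± 0.19. With the block 3 cone genes were called lower, and without loess 2, beside the shares of 7.69% and 19.6% of all genes. Of 11 genes of the photoreceptor ribbon synapse 10 were measured, 5 higher and 5 lower, at a median of -0.04, and 1 was called. With the block 2 of them were called lower, and without loess 2 lower and 1 higher. The called gene was Dag1, dystroglycan, a matrix receptor at the rod terminal and in Müller glia. It read 3.74, 3.89, 3.90 and 3.86 in CTR1 to CTR4, against 3.33, 3.43, 3.40 and 3.28 in ONC1 to ONC4. The labels did not overlap, and the difference of -0.49 ± 0.08 had an adjusted p of 0.0438 in limma. That call was lost without each of the 8 channels in turn, where the difference stayed between -0.53 and -0.46. It was also lost with both normexp settings, in the channels of agreed dye (-0.52) and with processed signals (-0.30). Cacna1f, the calcium channel of the terminal, differed by -0.09 ± 0.18, and its partner Cabp4 by 0.22 ± 0.15, or 0.36 without ONC2. In the channels of agreed dye Cabp4 differed by 0.48 ± 0.15.

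**Figure D4:**
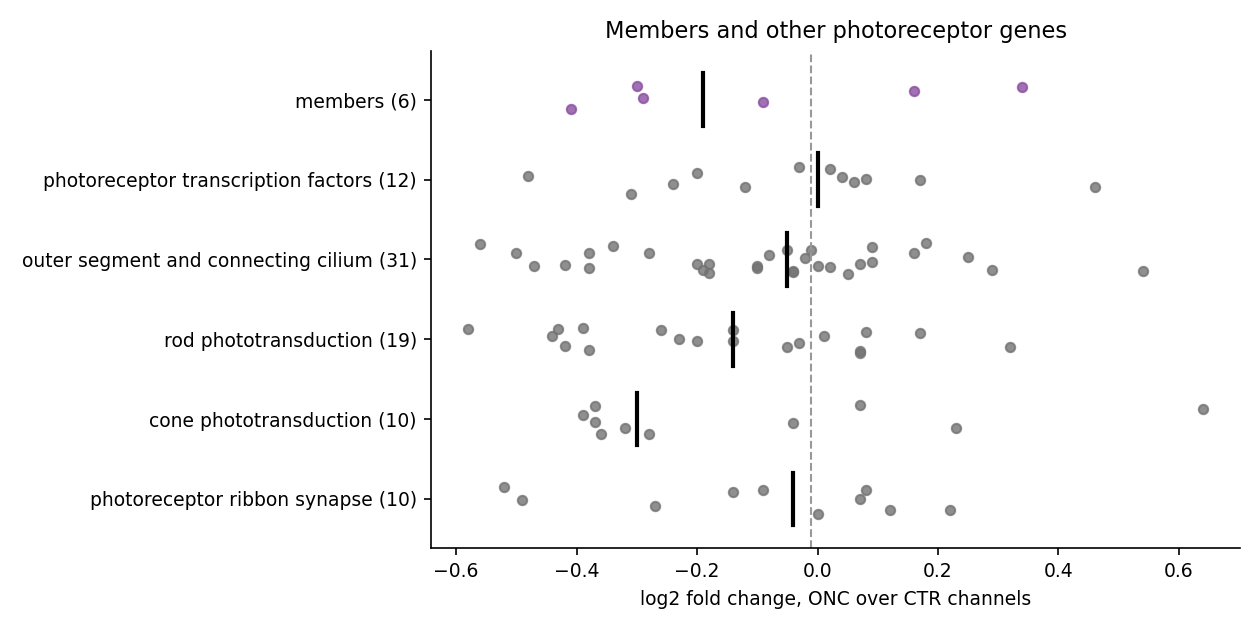
Log2 difference of each measured gene in the members and in 5 photoreceptor lists (points, with the number of genes in brackets), ONC over CTR channels. Black bars are list medians, from -0.30 for cone phototransduction to 0.00 for transcription factors, and the dashed line is the median of all genes at -0.01.

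Markers of other retinal cells differed between single channels. Of 15 RGC markers 12 were measured, 11 higher and 1 lower in the ONC channels at a median of 1.16, and none was called. Their summed linear level was 15.9, 45.7, 18.6 and 24.4 in CTR1 to CTR4, against 52.5, 52.0, 53.2 and 19.0 in ONC1 to ONC4. Pou4f2 differed by 2.07 ± 0.92 and Rbpms, an RNA-binding protein of RGCs, by 1.15 ± 0.68, or 1.74 without CTR2. For the measured members the same sums were 169, 147, 184 and 181 in CTR1 to CTR4, against 154, 138, 156 and 131 in ONC1 to ONC4. The member sums thus differed far less between channels than those of the RGC markers. The lowest member sum was in ONC4, where RGC markers were low, and the next in ONC2, where they were high. These sums are linear and rest most on the brightest measured member, Rom1. In ONC4, relative to their own means, Crx was at -0.54, Rom1 at -0.51 and Rp1 at -0.44. Abca4 was at 0.00 there, Prom1 at 0.13 and Nrl at 0.16, so the low sum was not shared by all members. The part of RGC content in the member differences was not tested.

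Lens markers, of which 11 of 11 were measured, summed to 181 in CTR2 and to between 48.8 and 97.0 in the other channels. Between labels their median difference was -0.39, with 10 lower and 1 higher under ONC. Cryaa, a lens crystallin, differed by -0.95 ± 0.29 and Bfsp1, a beaded filament protein, by -0.24 ± 0.40. Microglial markers, 12 of 12 measured, were lower in 11 cases at a list median of -0.32, with Aif1 at -0.59 ± 0.25. The receptor Cx3cr1, at 0.39 ± 0.14, was the only higher one. Among 9 of 10 Müller glia markers 2 were higher and 7 lower at a median of -0.19, with Rlbp1 at 0.02 ± 0.11 and glutamine synthetase, Glul, at 0.58 ± 0.26, or 0.29 without CTR4. These are the 2 higher ones. Among 8 of 12 pigment epithelium markers 7 were higher and 1 lower at a median of 0.11. The isomerase Rpe65 differed there by 0.79 ± 0.34, or 0.51 without CTR3. Lrat differed by 0.27 ± 0.38, or 0.11 without ONC4 and 0.60 without ONC2.

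All 10 bipolar cell markers were measured, 7 higher and 3 lower at a median of 0.13, with Grm6 at 0.27 ± 0.11, or 0.17 without CTR3. Amacrine cell markers, 10 of 11, were higher in 5 cases and lower in 5 at a median of 0.02. Gad1 was at -0.18 ± 0.21, or -0.02 without ONC2, and Slc6a9 at -0.41 ± 0.12. Slc6a9 was at -0.18 ± 0.12 with its brightest probe and at -0.61 ± 0.10 with processed signals. The 5 horizontal cell markers, 2 higher and 3 lower, had a median of -0.01, with Lhx1 at -0.16 ± 0.10, or -0.09 without ONC4, and Onecut1 at -0.10 ± 0.25. Endothelial and pericyte markers, 9 of 10, were higher in 4 cases and lower in 5 at a median of -0.05. Pecam1 was at 0.18 ± 0.11, or 0.29 without CTR3. Cdh5 was at 0.13 ± 0.16, or 0.03 without CTR2 and 0.48 without loess. Of 4 blood markers 2 were measured, Alas2 at 0.08 ± 0.29 and Hbb at 0.22 ± 0.24, or 0.05 without CTR2. Without loess Alas2 was at 0.48. In the channels of agreed dye Alas2 was at 0.63 and Hbb at 0.58. No marker of the lists for other cells was called by limma as reported. With the array as a block, which called 7.69% of all genes, 2 Müller glia markers and the amacrine marker Slc6a9 were called lower. Without loess, which called 19.6% of all genes, those called lower were 2 amacrine, 2 Müller glia, 1 microglial and 1 lens marker, Slc6a9 and Cryaa among them, and those called higher were 1 RGC, 2 bipolar and 1 horizontal cell marker. The part of these cells in the member differences was not tested.

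**Figure D5:**
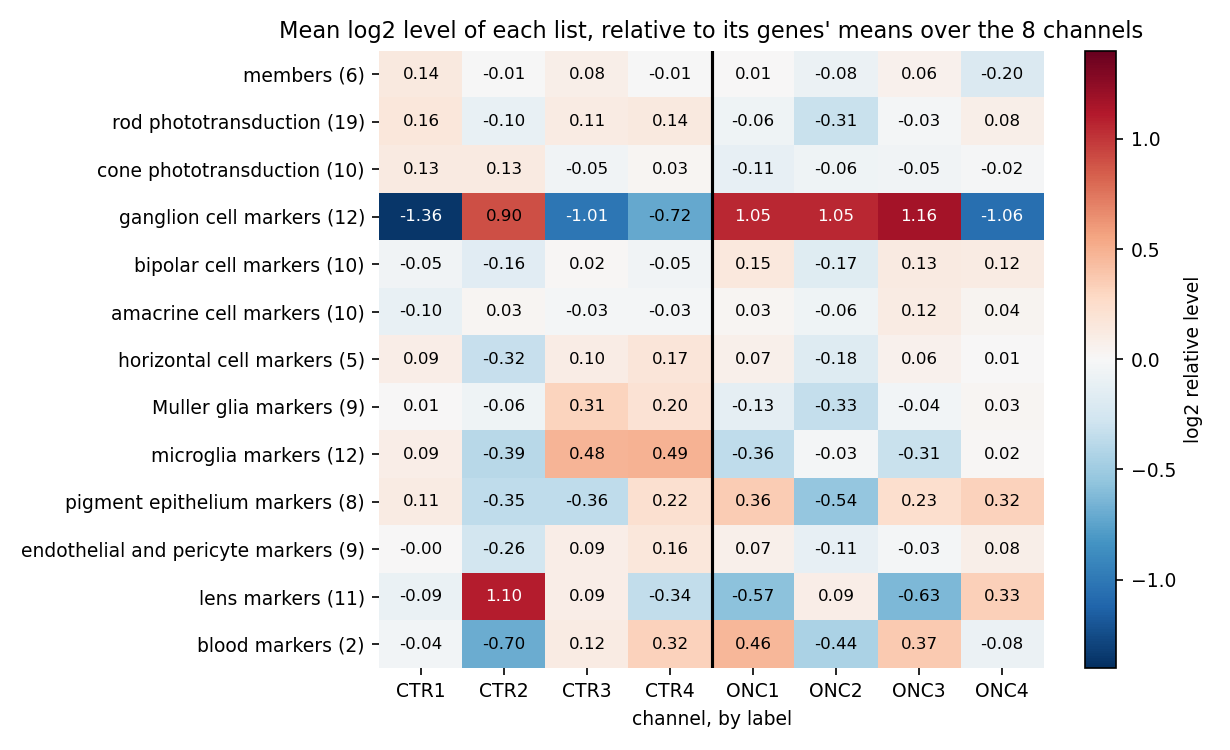
Mean log2 level of the members and of 12 lists in each channel, each gene taken relative to its own mean over the 8 channels (number of measured genes in brackets). RGC markers range from -1.36 in CTR1 to 1.16 in ONC3, lens markers reach 1.10 in CTR2, and the members stay between -0.20 and 0.14.

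Promoters of 8 members, all but Rp1, were found in RefSeq on build GRCr8, from 250 bases before to 50 after the start of the gene, with 2 entries for Prom1. They are shown where they hold the core motif bound by Crx, TAATCC or GGATTA on the other strand, because Crx is itself a member. It occurred in 3 of the 8, namely Crx, Prph2 and Abca4, and in 7.2% of 33469 promoters of 300 bases. Each match is in capitals with 12 bases on either side:
Crx, chr1:85682005-85682034, minus strand, 170 bases before the start: ggtggtggcggtGGATTAagcagacggtgc
Crx, chr1:85681932-85681961, minus strand, 97 bases before the start: ccaccttccctgGGATTAcccttcgagatc
Prph2, chr9:21579190-21579219, minus strand, 133 bases before the start: ggatcccactttTAATCCgcacttttcgga
Abca4, chr2:212849415-212849444, plus strand, 58 bases before the start: gataattagaagGGATTAtgtttgaagggg

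Crx was 0.30 log2 units below and Abca4 0.34 above in the ONC channels, and neither was called without the block. In the channels of agreed dye both were above, Crx by 0.14 and Abca4 by 0.40. No direction is given for Crx or for Prph2, which also holds the motif. The core motif bound by Nrl, TGCTGA or TCAGCA on the other strand, occurred in 0 of these 8 members and in 18.4% of all promoters. The E-box CANNTG, bound by factors such as Neurod1, occurred in 6 of 8 and in 72.1% of all. A match of letters is a description and shows no binding.

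The study's measure of variability, REV, is a percentage built from the coefficient of variation among the 4 channels of a label, and GES is the percentile of a gene when all are ordered from high to low REV. Rp1 had the highest REV of the measured members in the CTR channels, 49.3, and Crx in the ONC channels, 43.5 with a GES of 15.5. Rom1 had 31.9 and 34.6, and Prom1 had 16.2 in the ONC channels. Nrl had the lowest REV among ONC channels, 12.4 with a GES of 79.3, against 23.1 in the CTR channels. Abca4 had 28.6 in the CTR and 16.3 in the ONC channels. The medians over all genes were 25.1 and 21.7. REV holds a coefficient that is larger with fewer channels or fewer spots per gene. Prom1 has 2 spots and the other measured members 1 kept spot each, so its REV is lower at the same coefficient of variation. REV is thus not like for like between Prom1 and the others, or with the medians over all genes. Between 4 and 3 channels only GES is compared. For Rp1 among ONC channels GES was 36.8, and with single channels left out it ran from 21.6 to 96.2, the high value without ONC4. For Crx it ran from 9.16 to 24.3 among ONC channels and from 10.6 to 66.5 among CTR channels. GES of Abca4 was 65.7 among ONC channels, with a range of 40.3 to 92.1. Among CTR channels it was 41.4, with a range of 24.2 to 57.0. GES of Rom1 was 25.1 among ONC channels (14.2 to 31.6) and 34.3 among CTR channels (22.1 to 51.5). None of the 6 met the methods' criterion, which asks for an unadjusted test and for a fold beyond a limit set by REV, and which was met by 503 genes, or 3.08%.

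The likeness of profiles was described by a distance. Around the members' mean profile over the 8 channels, each gene taken relative to its own mean, the root-mean-square difference was 0.16 for Prom1 and 0.248 for Abca4, with the other 4 between. The 10646 other named genes were ordered by the same distance, and those nearest to that mean profile were Gpr135 at 0.041, Plekhn1 at 0.045, Rab3ip at 0.05, Acaa1b at 0.052 and Khk at 0.054. Their differences between labels ranged from -0.14 ± 0.10 for Acaa1b to -0.06 ± 0.08 for Rab3ip, and none was called. The mean profile itself was nearly flat, from 0.14 in CTR1 to -0.20 in ONC4.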

How the data were processed

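The authors deposited intensity values per spot from Feature Extraction (version 12.0.3.1 per the file headers, 11.1.19.1 per the submitters' processing notes): mean foreground, median background and a processed signal, already background-subtracted and dye-normalized. Each array holds 44254 spots, 1377 of them controls. Median foreground over background was 468 over 56.0, 626 over 56.5, 447 over 55.0 and 468 over 55.0 in CTR1 to CTR4 and 337 over 29.0, 495 over 29.5, 332 over 28.0 and 218 over 26.0 in ONC1 to ONC4. The number of arrays limits precision.

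Spots marked as outliers on any array, or under 2 times background in any of 8 channels, were left out (27371 spots, 18599 probes and 16307 genes were kept). For members, this removed 3 of 10 probes, all by outlier marks. Background was subtracted, arrays were normalized by loess and channels centred on their medians. Spots of a probe and probes of a gene were averaged. The methods' in-house normalization is not described closely enough to repeat.

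The test between labels was that of limma 3.58.1 under R 4.3.3 (functions lmFit and eBayes, two-sided, Benjamini-Hochberg over all genes), tested on simulated data. The simulation had independent noise of equal size for all genes, no array or dye effect, and changes larger than those of the members. It therefore cannot show how the test behaves with the arrays and dyes of these data. The p-values weigh the difference between labels against the spread among channels of a label. They cannot separate label from dye, and the fit as reported treats the channels of an array as independent. Channels of an array deviated together over genes (r of 0.149, 0.549, 0.401 and 0.487 for the 4 arrays), so the array, which the labels number, was used as a block in an alternative fit. Other alternatives were other scalings, background corrections, filters and tests, and each channel left out. Tables and promoters were from RefSeq, GRCr8, and summaries were made in Python 3.11.15.

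The members and lists were chosen with earlier results of these data known. Named were the members, the first 2 genes of each list (only 1 for the rod and bipolar cell lists), called genes of the lists, and the 5 genes nearest to the members' mean profile.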

Additional observations from a re-analysis of the deposited data

Results flagged for a closer look

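Among 86 groups of 4 channels examined, 9 held a channel whose gap to its nearest neighbour took up more of the range of the group than Dixon's limit for 4 values allows. Chance flags about 1 in 20 groups. Rp1 in ONC4 was at 2.50, against 2.88 to 2.92 in the other ONC channels, by the 1 probe that carries its value. The other Rp1 probe was not low in ONC4, at 4.77 against 4.71 in ONC2 and 5.08 in ONC3. No cause was tested.

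Among other photoreceptor genes, ONC2 was the channel apart: Cdhr1 was at 6.30 there and Gnb5 at 1.61. The Müller glia marker Rlbp1 was also low in ONC2, at 2.27. Pou4f2, the RGC factor, was at -3.14 in ONC4. Onecut1 was at -2.04 in CTR2, and Pecam1 at -0.42 in CTR3. Gpr135 and Khk, which were chosen for a profile near that of the members, were low in ONC4, at -3.47 and 1.66.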

How the results depend on the processing

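Of 19 alternatives for each measured member, Nrl and Abca4 kept their direction and stayed uncalled in all 19, Rom1 and Rp1 in 18, and Crx and Prom1 in 17. Tulp1 did so in 11 of 11 and Prph2 in 8 of 9, where the choices about outlier marks were made after the data were seen. Members called were 1 without loess (Rom1), 1 with the array as a block (Crx) and 2 by the methods' unadjusted test (Rom1 and Abca4), against 0 as reported. The block changed no other call of a member. The median of the members was -0.33 without loess, -0.05 with processed signals and 0.04 in the channels of agreed dye.

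Signs turned for Crx in the channels of agreed dye (0.14), for Prom1 with processed signals and with its brightest probe (0.01 each), for Rp1 with outlier marks ignored (0.01) and for Prph2 with processed signals (0.03). With single channels left out, no member changed sign. Crx ran from -0.44 to -0.17, Rom1 from -0.51 to -0.31 and Prom1 from -0.16 to -0.05. Rp1 ran from -0.41 to -0.19, Prph2 from -0.42 to -0.04 and Tulp1 from -0.46 to -0.12. The cause was not tested.

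The genes called numbered 3194 without loess, 412 after Aquantile, 123 with the stricter background filter, 21 with processed signals, 1254 with the block, 124 with the brightest probe and 49 with outlier marks per array. They numbered 0 with normexp, 0 with normexp and no filter on dim spots, and 0 in the channels of agreed dye, where fewer channels were compared. The methods' test gave 2682, or 0 adjusted, and the methods' criterion 503. Leaving out single channels gave 0 to 38, with fewer channels. Without loess, the shift with brightness remains in the values.

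Of 702 alternatives for other named genes, 647 kept direction and call, 29 turned sign, 14 gained a call and 12 lost it. Without loess the turned values were Otx2 -0.22, Neurod1 -0.09, Gad1 0.10, Rlbp1 -0.04 and Gpr135 0.41. In the channels of agreed dye they were Lhx1 0.00, Onecut1 0.32, Rab3ip 0.04, Acaa1b 0.04 and Khk 0.02. Processed signals turned Onecut1 (0.01) and Rab3ip (0.02). Gad1 turned with outlier marks per array (0.04) and ignored (0.07). With single channels left out, Otx2 ran from -0.01 to 0.16, Neurod1 from -0.05 to 0.07, Arr3 from -0.15 to 0.15 and Cacna1f from -0.23 to 0.02. Onecut1 ran from -0.38 to 0.01, Rlbp1 from -0.02 to 0.12, Bfsp1 from -0.47 to 0.14 and Alas2 from -0.16 to 0.31. The cause was not tested for these. REV and GES of members moved in 43 of 120 alternatives. Part of that lies in REV itself, whose coefficient grows with fewer channels. Member signal stood far above background in all 8 channels.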

Other observations

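In each photoreceptor list the gene with the smallest p, picked after its values were seen, was lower in the ONC channels. Rax, a homeobox factor of the early eye field, differed by -0.48 ± 0.20 with an adjusted p of 0.256 in limma, and by -0.29 without ONC2. Unc119, a carrier of lipid-modified proteins to the outer segment, read 7.64, 7.23, 7.58 and 7.35 in CTR1 to CTR4, against 6.91, 6.60, 7.05 and 7.02 in ONC1 to ONC4. Its labels did not overlap, and the difference of -0.56 ± 0.13 had an adjusted p of 0.0837. Gnb5, which holds the regulator of transducin shut-off, differed by -0.58 ± 0.13 with an adjusted p of 0.0782. Opn1mw, the M opsin of cones, was between 0.69 and 0.85 in the CTR channels and between 0.34 and 0.50 in the ONC channels, at -0.37 ± 0.08 and an adjusted p of 0.0668. All 4 were called lower with the array as a block, which called 7.69% of all genes, while Dag1 was called without it. Unc119 was at -0.31 in the channels of agreed dye and at -1.02 without loess. With processed signals Opn1mw was at -0.22.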
